A study of Mus musculus with 12 samples.

Results

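The Wnt pathway genes described here are the 52 genes whose symbol belongs to 1 of 6 families. These are the Wnt ligands, the Fzd, Lrp5, Lrp6, Ror1 and Ror2 receptors, the secreted inhibitors, the R-spondins, the 2 axins, and the TCF/LEF transcription factors. The secreted inhibitors are Sfrp1, Sfrp2, Sfrp4, Sfrp5, Dkk1 to Dkk4 and Wif1. The 52 genes were chosen by symbol among 20753 genes measured on an expression array. They are represented by 100 probe sets, and each gene is given by its probe set with the highest mean signal. By role, 19 of the 52 are ligands, 14 receptors, 9 secreted inhibitors, 4 R-spondins, 2 axins and 4 TCF/LEF factors. The study compared mouse embryonic fibroblasts, immortalized by SV40 large T antigen, that were wildtype or homozygous knockout for Ppp1r15a, the gene of GADD34, the stress-induced subunit that directs a phosphatase to the translation factor eIF2 alpha. The cells came from embryos of 12.5-14.5 days, and the labels give both genotypes 1 strain, named by the allele B6.129P2-Ppp1r15A tm1.1.Ajf/Mmnc together with C57Bl/6. Each genotype was left untreated or was given 0.1 mM sodium arsenite, an oxidative and proteotoxic stressor, for 2 h before lysis. The 3 replicate experiments each held all 4 conditions, so there were 3 arrays in each of 4 groups and 12 arrays in all. The T antigen is shared by all groups, and the labels do not say how many independently derived populations of each genotype were used, so the p-values measure the spread between replicate experiments and a genotype difference cannot be told apart from a difference between derived populations.

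Wnt proteins are lipid-modified secreted ligands that bind Frizzled receptors together with the co-receptors Lrp5 or Lrp6. Binding keeps a cytoplasmic complex built on axin, APC and the kinase GSK3 from marking beta-catenin for destruction, and beta-catenin then joins TCF/LEF factors on DNA. Wnt5a and Wnt11 act largely without beta-catenin, through Frizzled and Ror receptors, on cell shape, polarity and migration. Sfrp and Wif1 proteins bind Wnts outside the cell, Dkk1, Dkk2 and Dkk4 bind the Lrp co-receptors, and R-spondins raise the amount of Frizzled at the surface. In fibroblasts of the embryo these genes are known for patterning mesenchyme, cartilage and bone.

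All levels below are log2 signals, per array in the order of experiments 1, 2 and 3, and levels of different genes are not compared because probe sets differ in their response. A group mean under 5.35, the signal that bounds the lowest 40 percent of all values, was treated as possible background. By that floor 39 of the 52 genes (75.0%) were above background in at least 1 group, against 71.2% of all genes: 13 of the 19 ligands, all 14 receptors, 5 of the 9 secreted inhibitors, 1 of the 4 R-spondins, both axins and all 4 TCF/LEF factors. The 13 genes below it in every group were Wnt1, Wnt2, Wnt2b, Wnt3, Wnt8a, Wnt8b, Dkk1, Dkk4, Sfrp2, Wif1, Rspo1, Rspo3 and Rspo4. A change was called where limma's p-value, adjusted over all 20753 genes, was under 0.05.

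The genotype labels were checked on Ppp1r15a. Arsenite raised it by 3.40 ± 0.22 in wildtype cells (log2 change ± SE, limma adjusted p = 8.41e-06), it moved by -0.03 in knockout cells (adjusted p = 0.95), and it was 5.74 lower in the knockout than in the wildtype under arsenite (adjusted p = 2.34e-08). The labels do not say whether its probe set lies in the deleted part. Of 15 fibroblast markers all lay above the floor in at least 1 group and 13 in every group, with a mean of 9.66 to 10.94 per array. Markers of other cell types also lay above it in at least 1 group. These were 7 of 10 epithelial, 3 of 8 endothelial, 4 of 8 blood and macrophage and 8 of 10 neural ones. Among them too were 6 of 8 skeletal muscle, 4 of 5 cartilage and 1 of 4 pluripotent ones. Kdr stood at 7.79 and Csf1r at 6.82 in untreated wildtype cells, while Cdh1, Pecam1 and Ptprc lay under the floor in every group. Some markers moved with genotype. Among the fibroblast markers 2 were higher and 3 lower in untreated knockout cells, with Col1a2 at 10.33 in the wildtype and 14.66 in the knockout, Postn at 9.90 and 6.56, and Thy1 at 7.32 and 5.14. Among 5 cartilage markers 2 were higher, with Col2a1 at 9.07 and 11.79, and the mean of the 5 was 6.20 to 6.47 per wildtype array and 7.01 to 7.51 per knockout array. In the same comparison Krt19 stood at 8.17 and 10.01, Stmn2 at 5.89 and 8.09, Tubb3 at 7.72 and 8.95 and Kdr at 7.79 and 6.62. Of the epithelial markers 1 was called higher and 1 lower in the knockout, and Krt18 stood at 5.07 and 4.53, both under the floor. Of the endothelial markers 0 were called higher and 1 lower, and the same held for the blood and macrophage markers, where Cd68 stood at 6.08 and 5.22. Map2 stood at 9.06 and 7.49, but that difference was not called: 2 neural markers were called higher and 0 lower in untreated cells. Under arsenite 1 neural marker was called higher and 1 lower in the knockout, and Map2 stood at 9.02 and 7.32. The part of cell type and state in the genotype differences below was not tested. In bulk RNA, fewer cells of a type and less RNA per cell cannot be told apart. A second, shorter deposited table of the same values names 10 of its 12 columns for another array than the full table does. The full table's array codes were used, since the authors' named group means match them to within 1e-06.

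The largest set of differences lay between the genotypes. In untreated cells 20 of the 52 genes (38.5%) differed, 13 higher and 7 lower in the knockout, where 20.1% of all genes were called, 9.83% higher and 10.3% lower. Under arsenite 17 (32.7%) differed, 10 higher and 7 lower, where 21.1% of all genes were called, 10.3% higher and 10.8% lower. In both comparisons 15 genes were called, 15 of the 20 and 15 of the 17. The 2 comparisons share no arrays but come from the same experiments. The median change over the 52 was 0.10 in untreated cells and 0.16 under arsenite, against -0.01 and 0.03 over all genes. With the replicate experiment as a block the count under arsenite was 27, 20 higher and 7 lower, beside 30.2% of all genes, 15.1% higher and 15.0% lower. In untreated cells the block gave 24, 17 higher and 7 lower, beside 29.2%, 14.3% higher and 14.9% lower. The groups did not overlap for 27 of the 52 in untreated cells and for 26 under arsenite, where 34.5% and 34.3% of all genes did not.

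**Figure D1:**
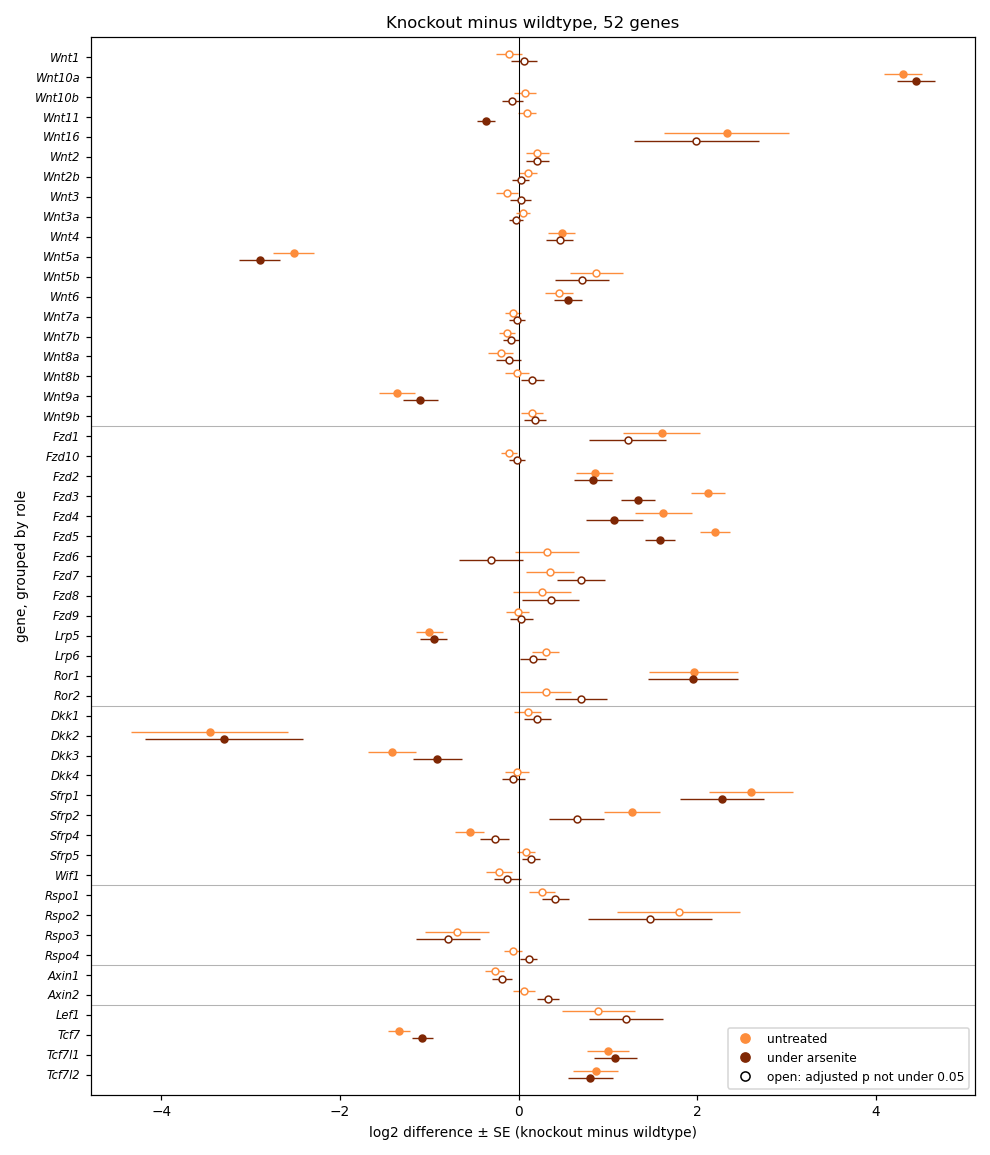
Log2 difference between knockout and wildtype cells (x axis) for each of the 52 Wnt pathway genes (y axis, by role), untreated and under arsenite, with points for the difference, lines for its standard error from limma over 3 arrays in each group, and open points where the adjusted p was not under 0.05. Wnt10a at 4.30 and 4.45 is the highest and Dkk2 at -3.46 and -3.30 the lowest.

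Of the 19 ligands, 5 (26.3%) differed between untreated genotypes, where 20.1% of all genes did. Wnt10a, Wnt16 and Wnt4 were higher and Wnt5a and Wnt9a lower in the knockout. Under arsenite 5 (26.3%) differed as well, where 21.1% of all genes did. There Wnt10a and Wnt6 were higher and Wnt5a, Wnt9a and Wnt11 lower. These shares lie near those of all genes. Wnt10a, a ligand known for tooth, hair and bone development, was the ligand with the largest difference. Like Wnt16, Lrp5, Dkk2, Sfrp2 and Sfrp4, it has 1 probe set on the array, so no other could be compared. Its level was 6.60, 6.93 and 7.10 in untreated wildtype cells, 7.18, 7.06 and 6.48 in wildtype cells under arsenite, 11.38, 11.11 and 11.05 in untreated knockout cells, and 11.54, 11.52 and 11.01 in knockout cells under arsenite. Every knockout array stood above every wildtype array, whatever the treatment. The difference was 4.30 ± 0.21 in untreated cells (19.8-fold, adjusted p = 1.33e-07) and 4.45 ± 0.21 under arsenite (21.8-fold, adjusted p = 1.36e-07). Wnt6, which lies next to Wnt10a on mouse chromosome 1 in the RefSeq gene order, read 6.60, 6.76 and 6.57 in wildtype and 7.51, 7.0 and 7.07 in knockout cells under arsenite. That difference was 0.55 ± 0.16 (adjusted p = 0.033), a far smaller one than that of its neighbour. In untreated cells it was 0.45 with an adjusted p of 0.0768, and 0.0304 with the replicate block. The other probe set of Wnt6 gave 0.11 in untreated cells and 0.27 under arsenite.

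Wnt5a, the main beta-catenin-independent ligand of embryonic mesenchyme, went the other way. It read 10.64, 10.47 and 10.73 in untreated wildtype cells and 8.24, 7.66 and 8.39 in untreated knockout cells. Under arsenite it read 9.87, 10.00 and 10.31 in the wildtype and 7.35, 6.64 and 7.49 in the knockout. The genotypes did not overlap at either treatment, and the knockout was lower by 2.52 ± 0.23 in untreated cells (a log2 change of -2.52, 5.72-fold, adjusted p = 2.01e-05) and by 2.90 under arsenite (-2.90 ± 0.23, 7.46-fold, adjusted p = 6.73e-06). Its other 3 probe sets gave untreated differences from -2.77 to -0.09, the last from a probe set with a mean signal of 3.91, under the floor. Wnt9a, a ligand known from joints and cartilage, read 7.17, 6.96 and 6.90 in untreated wildtype cells and 5.93, 5.30 and 5.73 in untreated knockout cells. Its difference was -1.36 ± 0.20 (adjusted p = 0.000658) and, under arsenite, -1.10 ± 0.20 (adjusted p = 0.00254). Its other probe set, with a mean signal of 3.96, under the floor, gave -0.02 in untreated cells.

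Wnt16, a ligand known for cortical bone, was spread widely between knockout experiments. It read 5.23, 4.91 and 4.98 in untreated wildtype cells, under the floor, and 8.90, 5.97 and 7.24 in untreated knockout cells. All 3 knockout arrays were above the wildtype, the second by the least. The difference was 2.33 ± 0.70 (adjusted p = 0.035), and it is limited by background in the wildtype. Wnt4, a ligand of kidney and gonad development, differed by 0.48 ± 0.15 in untreated cells (adjusted p = 0.0451). Its other probe set, with a mean signal of 5.21, under the floor, gave 0.10. The call for Wnt4 was lost without any single 1 of 9 arrays, and with repeated quantile normalization (0.45), median centring of each array (0.47), the mean over probe sets (0.29) or the compared groups alone. The call for Wnt16 was lost with limma's trended, robust variance, and without untreated wildtype array 1, 2 or 3 or untreated knockout array 1 or 3. The call for Wnt6 was lost without any 1 wildtype arsenite array or knockout arsenite array 1. The other ligands were not called between genotypes, with untreated changes from -0.20 to 0.87. The upper end belongs to Wnt5b, named after its values were seen, with 5.66, 5.47 and 5.34 in untreated wildtype and 6.88, 6.07 and 6.15 in untreated knockout cells (0.87 ± 0.30, adjusted p = 0.0588, and 0.00357 with the replicate block). Wnt7b and Wnt7a, the brightest ligands called in no comparison, had mean signals of 7.57 and 7.41.

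**Figure D2:**
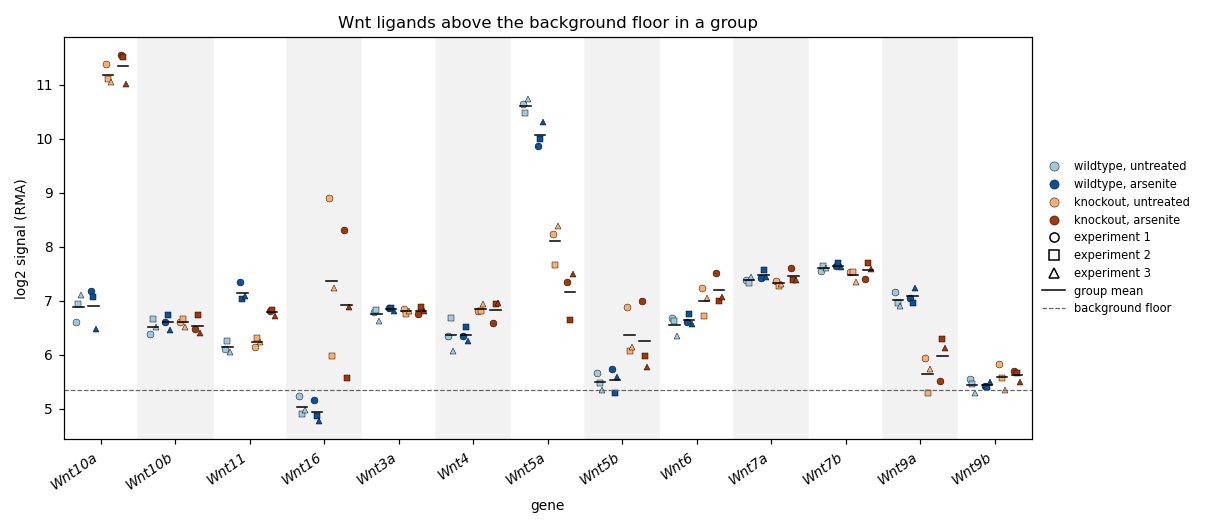
Log2 signal (y axis) of Wnt ligands on each of the 12 arrays, by group, with bars for group means, a dashed line for the floor and points for experiments 1, 2 and 3. Wnt10a sits near 7 in all wildtype and above 11 in all knockout arrays, Wnt5a is lower in the knockout, and Wnt11 is higher under arsenite in both genotypes.

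Arsenite called fewer of these genes, and Wnt11 was the one called in both genotypes. In wildtype cells 1 of the 52 (1.92%) was called, and it rose, where 2.12% of all genes were called, 1.65% higher and 0.477% lower. In knockout cells 5 (9.62%) were called, 1 higher and 4 lower, where 7.55% of all genes were, 3.74% higher and 3.80% lower. These shares lie near those of all genes. With the replicate block the counts were 3 in the wildtype (1 higher, 2 lower, beside 4.88% of all genes, 3.09% higher and 1.79% lower) and 10 in the knockout (3 higher, 7 lower, beside 14.7%, 6.63% higher and 8.07% lower). The treated and untreated arrays did not overlap for 5 of the 52 in the wildtype and 11 in the knockout, where 20.5% and 23.6% of all genes did not. The medians over the 52 were 0.04 and 0.08, against -0.01 and 0.03 over all genes. Each arsenite comparison shares its untreated arrays with the untreated genotype comparison.

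Wnt11, a ligand of convergent extension and of kidney and heart development, read 6.11, 6.25 and 6.05 in untreated wildtype cells and 7.34, 7.04 and 7.08 after arsenite. In knockout cells it read 6.15, 6.31 and 6.23 untreated and 6.81, 6.83 and 6.72 after arsenite. It was higher after arsenite in all 3 experiments of each genotype, with no overlap. The rise was 1.02 ± 0.10 in the wildtype (2.02-fold, adjusted p = 0.000223, 95% interval 0.80 to 1.24) and 0.55 ± 0.10 in the knockout (1.47-fold, adjusted p = 0.00601). Untreated levels overlapped between genotypes, and under arsenite the knockout was lower by 0.37 (-0.37 ± 0.10, adjusted p = 0.0207), a call lost without wildtype arsenite array 1 or knockout arsenite array 3. The difference between the 2 rises was -0.46 ± 0.14 (interval -0.77 to -0.15, unadjusted p = 0.00697, limma adjusted p = 0.555), and it was not called. Wnt11 has 1 probe set on the array.

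The 250 bases before the 2 RefSeq start sites of Wnt11 are shown because Wnt11 alone was called after arsenite in both genotypes. The build is GRCm38.p6, chr7:98834862-98835111 and chr7:98838595-98838844, both on the plus strand, and the letters are from RefSeq. Capitals in the first mark ATCAAAG, the reverse complement of the TCF/LEF core CTTTGAT, at positions -51 to -45 from the start. Capitals in the second mark a match to TGACNNNGC, the core read by the antioxidant factor NRF2, on the opposite strand at -175 to -167.
Wnt11 first start: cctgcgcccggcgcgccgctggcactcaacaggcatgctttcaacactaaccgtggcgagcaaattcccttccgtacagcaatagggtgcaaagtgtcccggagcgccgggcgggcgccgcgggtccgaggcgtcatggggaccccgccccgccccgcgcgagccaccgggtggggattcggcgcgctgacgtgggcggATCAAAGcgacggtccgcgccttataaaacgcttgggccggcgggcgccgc
Wnt11 second start: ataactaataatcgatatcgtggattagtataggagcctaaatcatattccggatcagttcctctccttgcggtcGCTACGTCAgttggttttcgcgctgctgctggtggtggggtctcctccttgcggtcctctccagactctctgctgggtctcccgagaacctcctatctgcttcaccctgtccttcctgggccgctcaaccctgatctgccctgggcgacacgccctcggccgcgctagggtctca
Both strands were searched. CTTTGAT stands in 3.21% of 32851 such mouse windows and TGACNNNGC in 10.2%, so matches of this kind are common, and a match describes letters and not a site in use. Windows were given for 35 of the 52 genes, 43 windows in all. CTTTGAT stood in windows of Wnt11 and Wnt5b, and TGACNNNGC in those of Fzd5, Fzd9, Tcf7l1, Wnt11, Wnt16 and Wnt5b. The AP-1 core TGANTCA (6.75% of all windows) stood in those of Ror2 and Wnt5b, and the heat shock core GAANNTTC (6.69%) in those of Tcf7l2, Wnt16 and Wnt5b. Each printed window holds 1 match to these motifs.

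Wnt5a was also lower after arsenite. The knockout fell by 0.94 (-0.94 ± 0.23, 1.92-fold, adjusted p = 0.0308), lower in all 3 experiments. The wildtype change was -0.56 ± 0.23 (adjusted p = 0.364), and the difference of the 2 was -0.38 ± 0.33 (adjusted p = 0.999), so the genotypes were not shown to differ. Its other 3 probe sets gave -0.77 to 0.19 in the knockout, the last from the probe set with a mean signal of 3.91, under the floor. The call was lost without untreated knockout array 1 or 3 or knockout arsenite array 1 or 2. The ligands other than Wnt5a and Wnt11 changed by -0.11 to 0.10 in the wildtype and by -0.45 to 0.33 in the knockout without a call.

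Of the 14 receptors 7 were called between untreated genotypes, 6 higher and 1 lower in the knockout, where 9.83% and 10.3% of all genes were. The higher ones were the Frizzleds Fzd1, Fzd2, Fzd3, Fzd4 and Fzd5 and the receptor tyrosine kinase Ror1, a Wnt5a receptor, and the lower one was the co-receptor Lrp5. Under arsenite 6 (42.9%) were called, 5 higher and 1 lower, where 10.3% and 10.8% of all genes were. With the replicate block 9 (64.3%) were called, 8 higher and 1 lower, where 15.1% and 15.0% of all genes were. Fzd5, a Frizzled known from eye and yolk sac development, read 7.74, 7.70 and 7.34 in untreated wildtype and 10.12, 9.81 and 9.44 in untreated knockout cells. Under arsenite it read 7.14, 7.40 and 7.48 in the wildtype and 9.09, 8.89 and 8.77 in the knockout. All 6 knockout arrays stood above all 6 wildtype arrays. The differences were 2.20 ± 0.17 (4.60-fold, adjusted p = 5.95e-06) and 1.58 ± 0.17 (2.98-fold, adjusted p = 7.3e-05). Its other probe set gave 0.87 in untreated cells.

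The 250 bases before the Fzd5 start are shown because Fzd5 was called in both genotype comparisons and in the arsenite comparison of knockout cells. The arsenite call is that of its brightest probe set, and the other, with a mean signal of 7.57, gave 0.22 there. The bases lie at chr1:64737751-64738000 of GRCm38.p6, minus strand, and come from RefSeq. Capitals mark TGACCCCGC, a match to TGACNNNGC, at -235 to -227.
Fzd5: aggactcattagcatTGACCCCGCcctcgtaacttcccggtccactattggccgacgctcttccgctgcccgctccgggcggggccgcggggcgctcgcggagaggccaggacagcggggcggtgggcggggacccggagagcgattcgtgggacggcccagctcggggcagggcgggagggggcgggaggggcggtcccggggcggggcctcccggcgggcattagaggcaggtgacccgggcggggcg
The window is 76.4% G and C, against 70.8% and 56.8% in the first and second Wnt11 windows.

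Fzd3, a Frizzled of axon guidance and planar polarity, read 5.63, 5.97 and 5.54 in untreated wildtype and 7.5, 8.19 and 7.82 in untreated knockout cells. Under arsenite it read 5.80, 5.76 and 5.39 in the wildtype and 6.80, 7.24 and 6.95 in the knockout. Its genotype differences were 2.12 ± 0.19 (adjusted p = 1.62e-05) and 1.34 ± 0.19 (adjusted p = 0.000418), with the groups apart at both treatments. The other 5 probe sets of Fzd3 gave untreated differences from -0.08 to 1.89. Those with a mean signal above the floor gave 0.83, 1.34 and 1.89, without overlap. Those with a mean signal under it (4.75 and 3.67) gave -0.08 and 0.10. Fzd4, a receptor also for Norrin in retinal vessels, read 5.78, 5.83 and 6.39 in untreated wildtype and 7.92, 6.90 and 8.04 in untreated knockout cells. Its differences were 1.62 ± 0.32 (adjusted p = 0.00365) and, under arsenite, 1.07 ± 0.32 (adjusted p = 0.0322), the latter lost without array 1 or 2 of the wildtype or array 1 or 3 of the knockout under arsenite. Its other probe set, with a mean signal of 3.29, under the floor, gave 0.31 in untreated cells.

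Fzd1 and Ror1 were both lowest in experiment 2 in every group. Fzd1, a broadly expressed Frizzled, read 9.77, 9.17 and 9.93 in untreated wildtype and 11.91, 10.21 and 11.56 in untreated knockout cells, a difference of 1.60 ± 0.43 (adjusted p = 0.0215). Ror1 read 5.77, 5.06 and 5.94 in untreated wildtype, 7.94, 6.85 and 7.87 in untreated knockout, 6.42, 4.91 and 6.15 in wildtype under arsenite, and 8.66, 6.81 and 7.86 in knockout cells under arsenite. The knockout arrays stayed above the wildtype in each case. The Ror1 differences were 1.96 ± 0.50 (adjusted p = 0.0158) and 1.95 ± 0.50 (adjusted p = 0.0156). Its other probe sets, with mean signals of 4.87 and 3.87, under the floor, gave 0.05 and 0.13 in untreated cells. The untreated calls for Fzd1 and Ror1 were each lost without untreated wildtype array 2 or untreated knockout array 1 or 3, and the arsenite call for Ror1 without wildtype arsenite array 2 or knockout arsenite array 1. Fzd2, close in sequence to Fzd1 and Fzd7, differed by 0.85 ± 0.21 in untreated cells (adjusted p = 0.0135) and by 0.83 ± 0.21 under arsenite (adjusted p = 0.0143). Its calls were lost without array 1 or 2 of the untreated wildtype, array 3 of the untreated knockout, array 2 of the wildtype under arsenite or array 3 of the knockout under arsenite, each in its own comparison.

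Lrp5, the co-receptor known from bone mass and retinal vessels, was the receptor gene lower in the knockout. It read 6.16, 6.13 and 5.96 in untreated wildtype and 5.02, 5.09 and 5.14 in untreated knockout cells. It differed by -1.0 ± 0.15 in untreated cells (adjusted p = 0.000764) and by -0.95 ± 0.15 under arsenite (adjusted p = 0.00102), and the knockout means lay under the floor, so the size may be understated. Among receptors not called in any comparison, Fzd7 read 10.61, 9.51 and 9.70 in untreated wildtype and 10.61, 10.24 and 10.04 in untreated knockout cells. Fzd6 read 9.90, 9.93 and 10.21 against 9.76, 10.90 and 10.33. The groups overlapped for both, and untreated changes of the 7 receptors without a call ran from -0.11 to 0.35.

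**Figure D3:**
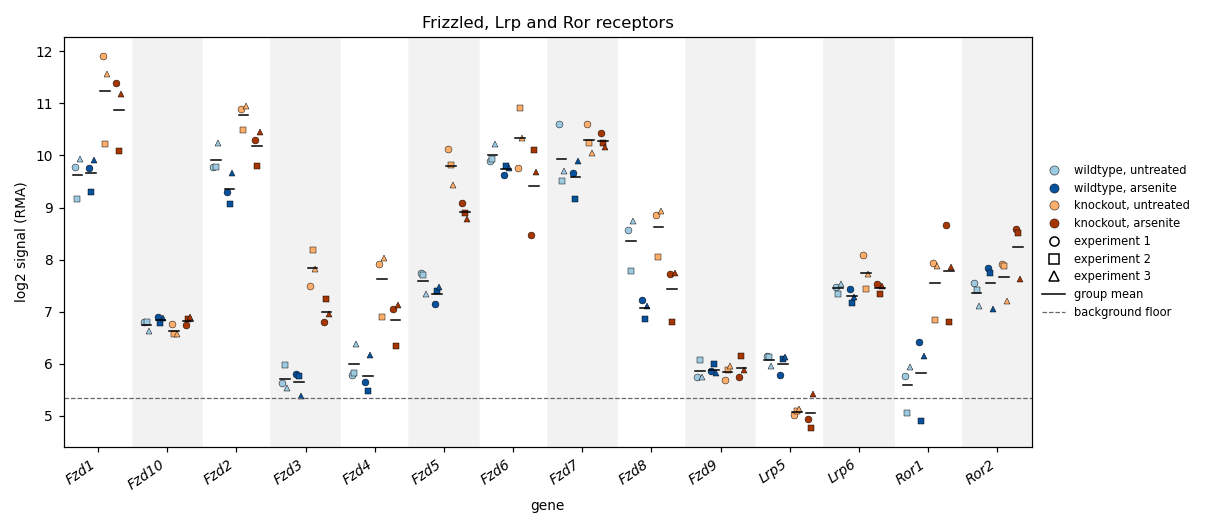
Log2 signal (y axis) of Frizzled, Lrp and Ror receptors on each of the 12 arrays, by group, with bars for group means, a dashed line for the floor and points for experiments 1, 2 and 3. Fzd3 and Fzd5 are apart by genotype on all arrays, Fzd8 is lower after arsenite in both genotypes, and Fzd1 and Ror1 are lowest in experiment 2.

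After arsenite 3 of the 14 receptors (21.4%) fell in knockout cells, Fzd5, Fzd3 and Fzd8, where 3.80% of all genes fell. With the replicate block 7 (50.0%) were called, 1 higher and 6 lower, where 6.63% and 8.07% of all genes were. With genes under the floor in every group left out and no block, 10.8% of genes were called in the knockout, in either direction. In wildtype cells limma called 0 of 14, with 2 at an unadjusted p under 0.05, where 2.12% of all genes were called. With the block 2 (14.3%) were lower there, where 1.79% of all genes were. Fzd8, a Frizzled closely related to Fzd5, read 8.56, 7.78 and 8.74 in untreated wildtype cells and 7.22, 6.86 and 7.11 after arsenite, and 8.86, 8.05 and 8.94 in untreated knockout cells and 7.73, 6.80 and 7.75 after arsenite. It was lower after arsenite in every experiment, without overlap in either genotype. It fell by 1.19 in the knockout (-1.19 ± 0.32, 2.28-fold, adjusted p = 0.0443). The wildtype change of -1.30 ± 0.32 was of like size with an adjusted p of 0.0702, and 0.00035 with the replicate block, and the difference of the 2 was 0.11 ± 0.45 (adjusted p = 0.999). The other probe set of Fzd8, with a mean signal of 4.67, under the floor, gave -1.06 in the knockout. Its call in the knockout was lost without any 1 of 8 arrays.

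Fzd5 fell by 0.88 in the knockout (-0.88 ± 0.17, adjusted p = 0.0104) and Fzd3 fell by 0.84 (-0.84 ± 0.19, adjusted p = 0.0200), with no overlap between untreated and treated arrays. In the wildtype they changed by -0.25 and -0.06 (adjusted p = 0.657 and 0.948). The differences between genotypes in these responses were -0.63 ± 0.25 for Fzd5 (unadjusted p = 0.0274, limma adjusted p = 0.738) and -0.78 ± 0.27 for Fzd3 (unadjusted p = 0.0146, limma adjusted p = 0.63), and neither was called. The probe sets of these genes disagree after arsenite: the other probe set of Fzd5 gave 0.22 and the other 5 of Fzd3 gave 0.06 to 0.43 in the knockout, opposite in sign to the values above. The mean over the probe sets of Fzd3 changed by 0.04. The Fzd3 call was also lost without untreated knockout array 2 or 3 or knockout arsenite array 1. The Fzd5 call was lost with the mean over probe sets, and without experiment 1 or 2. Both calls were lost with the compared groups alone. Fzd2, Fzd4 and Fzd6 changed by -0.59, -0.78 and -0.91 in the knockout, with adjusted p of 0.125, 0.184 and 0.171, and of 0.00314, 0.0119 and 0.0411 with the replicate block. Ror2, a Wnt5a receptor named after its values were seen, changed by 0.58 ± 0.29 (adjusted p = 0.283, and 0.00497 with the block). In the wildtype Fzd2 changed by -0.58 ± 0.21 (adjusted p = 0.271, and 0.0082 with the block).

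**Figure D4:**
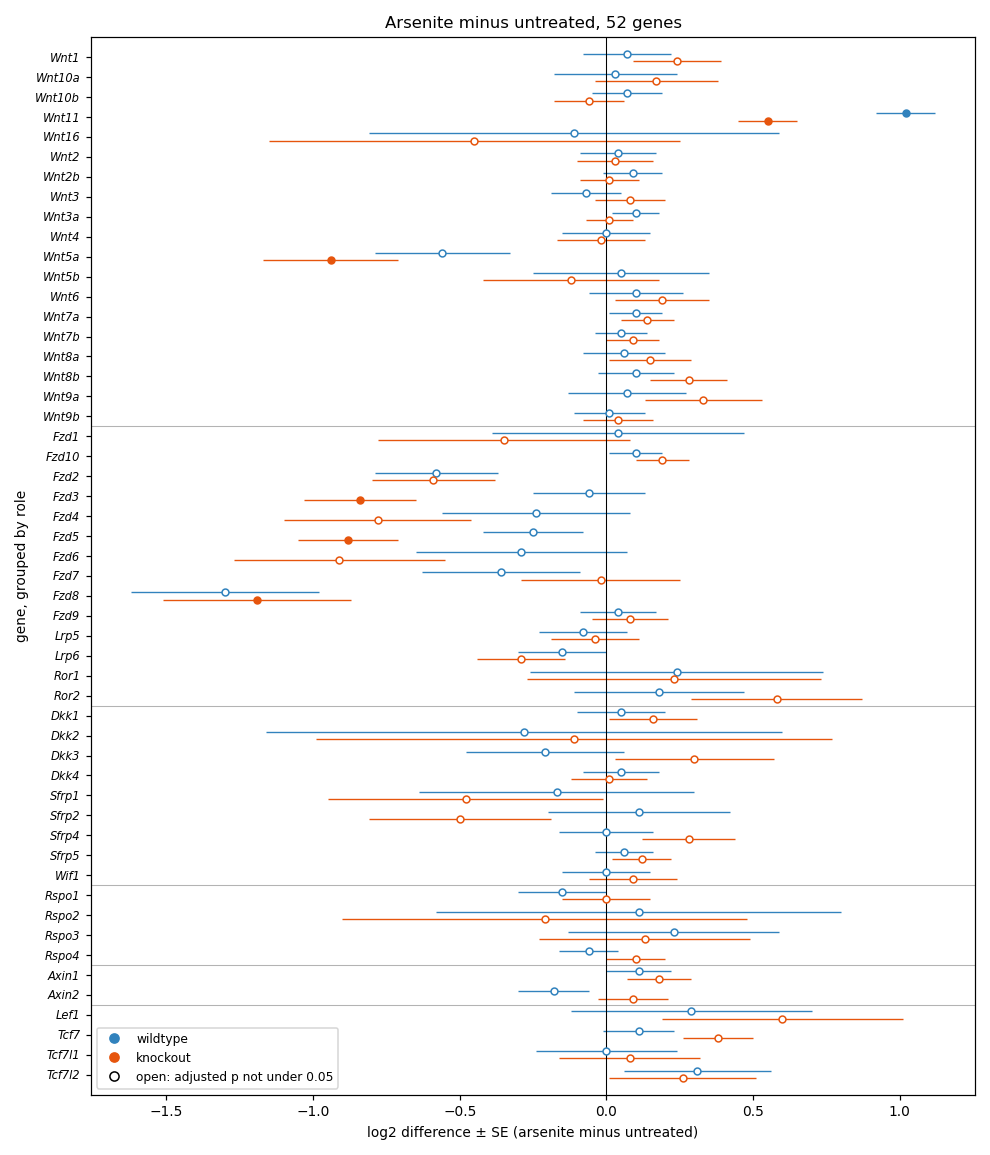
Log2 difference between arsenite-treated and untreated cells (x axis) for each of the 52 Wnt pathway genes (y axis, by role), in wildtype and knockout cells, with points for the change, lines for its standard error from limma over 3 arrays in each group, and open points where the adjusted p was not under 0.05. Wnt11 is at 1.02 and 0.55, Fzd8 at -1.30 and -1.19, and Fzd3 lies at -0.06 and -0.84 and Fzd5 at -0.25 and -0.88.

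Secreted inhibitors differed in both directions, with 5 of 9 (55.6%) called in untreated cells, where 20.1% of all genes were. Sfrp1 and Sfrp2 were higher and Dkk2, Dkk3 and Sfrp4 lower in the knockout. Sfrp1, a soluble Frizzled-like protein that binds Wnts, read 7.47, 6.80 and 7.22 in untreated wildtype and 10.74, 8.84 and 9.70 in untreated knockout cells. Under arsenite it read 7.17, 6.77 and 7.04 in the wildtype and 10.16, 8.39 and 9.28 in the knockout. Every knockout array was above every wildtype array, and experiment 2 was the lowest in each group. The differences were 2.60 ± 0.47 (6.06-fold, adjusted p = 0.00213) and 2.28 ± 0.47 (4.87-fold, adjusted p = 0.00465), and its other probe sets gave 0.93 to 3.32 in untreated cells. Sfrp2 differed by 1.27 ± 0.31 (adjusted p = 0.0140), but both means were under the floor, and the call was lost without untreated wildtype array 2.

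Dkk2, which binds Lrp5 and Lrp6 and can inhibit or weakly activate signalling, read 8.35, 8.93 and 8.54 in untreated wildtype and 3.93, 7.05 and 4.45 in untreated knockout cells. Under arsenite it read 7.93, 8.67 and 8.38 in the wildtype and 3.84, 7.19 and 4.06 in the knockout. Knockout experiments 1 and 3 were under the floor and experiment 2 was above it, and all were under the wildtype. The differences were -3.46 ± 0.88 (adjusted p = 0.0158) and -3.30 ± 0.88 (adjusted p = 0.0195), and since the knockout means lay under the floor they may be understated. The untreated call was lost without untreated wildtype array 2 or untreated knockout array 1 or 3, and that under arsenite without array 2 or 3 of the wildtype or 1 or 3 of the knockout. Dkk3, a divergent Dickkopf protein, read 7.37, 6.19 and 6.95 in untreated wildtype and 5.43, 5.47 and 5.36 in untreated knockout cells. It differed by -1.42 ± 0.27 (adjusted p = 0.00284) and under arsenite by -0.91 ± 0.27 (adjusted p = 0.0314, lost without array 1 or 3 of either genotype under arsenite), and its other probe set gave -1.42 in untreated cells. Sfrp4, known from bone, differed by -0.55 ± 0.16 in untreated cells (adjusted p = 0.0282), a call lost without array 2 or 3 of either untreated group.

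Under arsenite 3 inhibitors (33.3%) were called between genotypes, Sfrp1 higher and Dkk2 and Dkk3 lower, where 21.1% of all genes were called. Arsenite itself changed 0 of the 9 in either genotype by limma, with 0 at an unadjusted p under 0.05 in both. Sfrp5 and Dkk1, the brightest inhibitors called in no comparison, had mean signals of 6.90 and 4.20, the second under the floor.

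**Figure D5:**
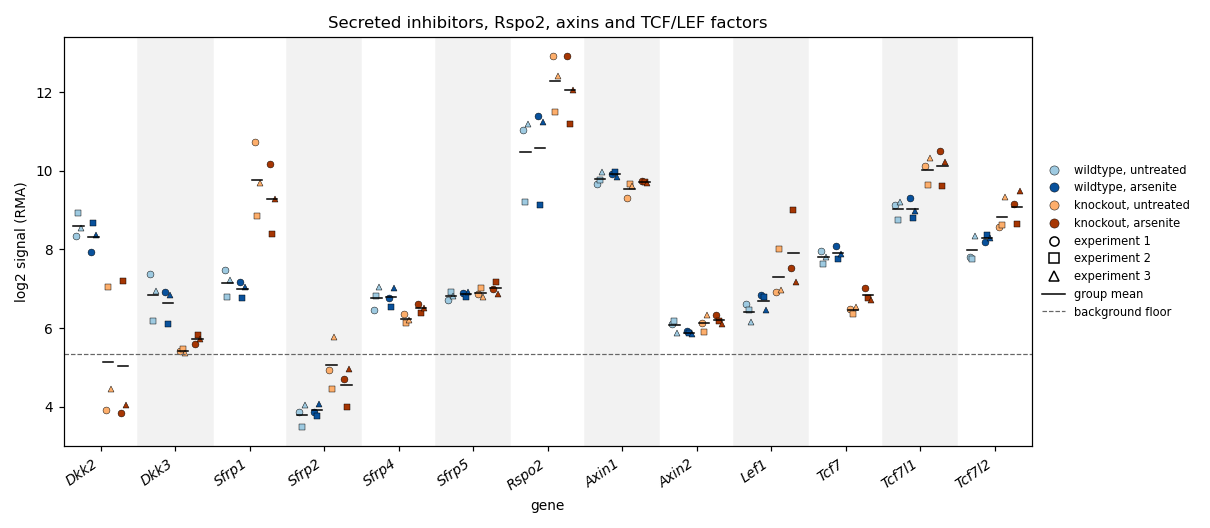
Log2 signal (y axis) of secreted inhibitors, Rspo2, axins and TCF/LEF factors on each of the 12 arrays, by group, with bars for group means, a dashed line for the floor and points for experiments 1, 2 and 3. Sfrp1 is higher and Tcf7 lower on all knockout arrays, and Dkk2 in the knockout is near 4 in experiments 1 and 3 and near 7 in experiment 2.

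Of the 4 R-spondins limma called 0 in any comparison, and Rspo2 was the one above the floor. Rspo2, a strong agonist that acts through Lgr receptors, read 11.04, 9.21 and 11.19 in untreated wildtype and 12.91, 11.49 and 12.41 in untreated knockout cells. The groups did not overlap, but experiment 2 was the lowest array in each. The difference was 1.79 ± 0.69 with an adjusted p of 0.0994, and 0.000218 with the replicate block, which takes the level of each experiment out. The other probe set of Rspo2, with a mean signal of 7.18, gave 0.06 in untreated cells, with overlapping groups. In untreated cells 1 R-spondin had an unadjusted p under 0.05, under arsenite between genotypes 2 did, and after arsenite 0 did in either genotype. Rspo4, the next brightest, had a mean signal of 5.13, under the floor.

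The axins, scaffolds of the beta-catenin destruction complex, were not called in any comparison. Axin1 read 9.67, 9.77 and 9.96 in untreated wildtype and 9.31, 9.66 and 9.62 in untreated knockout cells. Axin2, which beta-catenin signalling itself induces in many tissues, read 6.11, 6.19 and 5.89 against 6.13, 5.91 and 6.34, with overlapping groups. Under arsenite Axin2 read 5.92, 5.89 and 5.84 in the wildtype and 6.34, 6.19 and 6.11 in the knockout, a difference of 0.33 without overlap. Axin1 differed by -0.19 there, also without overlap, where 34.3% of all genes did not overlap. Limma called 0 of the 2 in all 5 comparisons, with 1 at an unadjusted p under 0.05 in each genotype comparison and 0 in the others.

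Of the 4 TCF/LEF factors, 3 differed between genotypes at both treatments, where 20.1% (untreated) and 21.1% (arsenite) of all genes did. Tcf7l1 and Tcf7l2 were higher and Tcf7 lower in the knockout. With the replicate block all 4 differed, where 29.2% and 30.2% of all genes did. Tcf7, known from T cells and limb buds, read 7.96, 7.63 and 7.82 in untreated wildtype and 6.48, 6.37 and 6.54 in untreated knockout cells. Under arsenite it read 8.10, 7.76 and 7.88 in the wildtype and 7.01, 6.77 and 6.72 in the knockout. All knockout arrays lay below all wildtype arrays. The differences were -1.34 ± 0.12 (2.54-fold, adjusted p = 1.67e-05) and -1.08 ± 0.12 (2.11-fold, adjusted p = 8.08e-05), and the other probe set gave -0.42 in untreated cells. After arsenite Tcf7 changed by 0.38 in the knockout (adjusted p = 0.0945, and 0.0147 with the block).

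Tcf7l1, which acts mostly as a repressor, read 9.13, 8.74 and 9.21 in untreated wildtype and 10.12, 9.64 and 10.32 in untreated knockout cells. It differed by 1.00 ± 0.24 (adjusted p = 0.0125, lost without untreated wildtype array 2 or untreated knockout array 3) and by 1.08 ± 0.24 under arsenite (adjusted p = 0.00791). The other probe set of Tcf7l1, with a mean signal of 8.89, gave 0.37 in untreated cells and 0.68 under arsenite. Tcf7l2, the factor of the intestinal crypt, differed by 0.86 ± 0.25 (adjusted p = 0.0295, lost without untreated wildtype array 1 or 2 or untreated knockout array 3) and by 0.80 ± 0.25 (adjusted p = 0.0383, lost without any 1 of 6 arrays). Its other probe sets gave 0.01 to 0.88 in untreated cells, the lowest from a probe set with a mean signal of 4.40, under the floor. Lef1, a factor that signalling itself induces in many tissues, read 6.61, 6.45 and 6.16 in untreated wildtype and 6.93, 8.0 and 6.97 in untreated knockout cells, with experiment 2 the highest knockout array. Its difference was 0.89 with an adjusted p of 0.169, and 0.0408 with the block. Under arsenite it was 1.20 ± 0.41 (limma adjusted p = 0.06, and 0.00902 with the block).

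The arsenite responses of the 2 genotypes were compared directly in the same fit. Limma called 0 of the 52 genes, where 0.0337% of all genes were called, with 3 at an unadjusted p under 0.05 (Wnt11, Fzd3 and Fzd5) and 6 with the replicate block. The differences ran from -0.78 to 0.51. The 95% intervals of single genes reached down to -2.56 and up to 2.89, so the lack of a call does not show that the genotypes responded alike.

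The median SD of the 52 genes between replicate experiments was above that of all genes. It was 0.188, 0.158, 0.222 and 0.22 in untreated wildtype, treated wildtype, untreated knockout and treated knockout cells, against 0.129, 0.125, 0.145 and 0.157 over all genes. Experiment 2 was the lowest array in all 4 groups for 9 of the 52 (17.3%): Fzd1, Fzd2, Fzd8, Lrp6, Ror1, Sfrp1, Sfrp2, Rspo2 and Tcf7l1. That held for 7.49% of all genes. It was the highest in all 4 groups for Wnt10b, Dkk2 and Rspo4 (5.77%, against 7.17% of all genes). The part of experiment 2 in the differences above was not tested beyond leaving it out, which gave 21 calls between untreated genotypes and 23 under arsenite, where 3305 and 3376 of all 20753 genes were called against 4181 and 4370 with all arrays. Leaving out experiment 1 gave 10 and 8, where 2302 and 2385 of all genes were called, and leaving out experiment 3 gave 10 and 8, where 2284 and 2573 were.

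Other genes of the pathway were read from a list of 70, of which 69 were measured. Between untreated genotypes 25 (36.2%) were called, 15 higher and 10 lower in the knockout, and 30 (43.5%) under arsenite, 16 higher and 14 lower, where 20.1% and 21.1% of all genes were called. With the replicate block the list counts were 31 and 36, where 29.2% and 30.2% of all genes were called. Igfbp4, an IGF-binding protein that can also bind Frizzled and Lrp6, was higher by 5.09 ± 0.35 in untreated knockout cells (34.1-fold, adjusted p = 1.93e-06). Ptk7, a co-receptor of planar polarity, was higher by 1.78 ± 0.27 (adjusted p = 0.000692), and Tle1, a Groucho corepressor that binds TCF factors, by 1.33 ± 0.19 (adjusted p = 0.000435). Apcdd1, a membrane inhibitor of Wnt signalling, was lower by 1.63 (-1.63 ± 0.24, adjusted p = 0.000555). Under arsenite Vangl2, a planar polarity protein, was higher by 1.41 ± 0.09 (adjusted p = 1.7e-06). Wls, the carrier that brings Wnts to the surface, and Cthrc1, a secreted partner of Wnt and Ror2, changed by 0.63 (adjusted p = 0.152, and 0.00648 with the block) and -0.63 (adjusted p = 0.421, and 0.0177 with the block) in untreated cells.

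After arsenite 1 of the 69 (1.45%) was called in wildtype cells, Tle4 (3 with the replicate block), and 7 (10.1%) in knockout cells, 3 higher and 4 lower, and 14 with the replicate block, 6 higher and 8 lower. Of all genes 2.12% and 7.55% were called, and 4.88% and 14.7% with the block. Tle4, another Groucho corepressor, rose by 0.97 ± 0.15 in the wildtype (adjusted p = 0.00514) and by 1.27 ± 0.15 in the knockout (adjusted p = 0.0005). Among those that fell in the knockout were Amer1, an APC-binding scaffold (-1.0 ± 0.19, adjusted p = 0.00857), Apc (-0.94 ± 0.18, adjusted p = 0.0089) and the kinase gene Gsk3b (-0.68 ± 0.15, adjusted p = 0.0182). In the wildtype Amer1 changed by -0.57 ± 0.19 (adjusted p = 0.221, and 0.00349 with the block). Lgr4, an R-spondin receptor, changed by -0.58 in the knockout (adjusted p = 0.103, and 0.00403 with the block). For the difference of responses limma called 0, with 6 at an unadjusted p under 0.05. The largest of these list members was Apc at -0.90 ± 0.26 (adjusted p = 0.474). The medians over the list were -0.02, 0.00, 0.04 and 0.02 in the wildtype arsenite, knockout arsenite, untreated genotype and treated genotype comparisons.

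Of 35 genes described elsewhere as induced by beta-catenin signalling, among them Axin2, Lef1, Tcf7 and Dkk1 of the families above, 9 (25.7%) differed between untreated genotypes, 3 higher and 6 lower in the knockout, where 20.1% of all genes did. Fst, which encodes the activin-binding follistatin, was higher by 2.00 ± 0.32 (adjusted p = 0.00103). Mycn, a proto-oncogene of embryonic progenitors, was lower by 3.31 (-3.31 ± 0.32, adjusted p = 2.6e-05). Under arsenite 6 (17.1%) differed, 2 higher and 4 lower, where 21.1% of all genes did, and 10 with the replicate block, where 30.2% did. These shares lie near those of all genes. Arsenite raised 2 of the 35 (5.71%) in wildtype cells and 3 (8.57%) in knockout cells, where 2.12% and 7.55% of all genes were called, and 4 and 7 were called with the replicate block, where 4.88% and 14.7% of all genes were. In the wildtype these were Vegfa (2.66 ± 0.39, adjusted p = 0.00364) and Jun (2.65 ± 0.42, adjusted p = 0.00531). In the knockout they were Jun (3.67 ± 0.42, adjusted p = 0.000383), Fosl1 (3.36 ± 0.54, adjusted p = 0.00327) and Vegfa (2.00 ± 0.39, adjusted p = 0.00957). In the wildtype Fosl1 changed by 2.22 ± 0.54, higher in all 3 experiments (adjusted p = 0.0682, and 0.00911 with the block), and its difference of responses was 1.15 ± 0.77 (adjusted p = 0.999). Jun, Fosl1 and Vegfa also respond to stress and serum. For the difference of responses limma called 0 of the 35, with 1 at an unadjusted p under 0.05. The medians over this list were -0.01 and 0.08 after arsenite in wildtype and knockout cells, and -0.09 and 0.03 between genotypes, untreated and under arsenite.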

How the data were processed

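RNA of 12 samples was hybridised to 1 Affymetrix mouse array each. The values are log2 signals that the authors deposited after RMA, per the submitters' processing notes, which background-corrects, quantile-normalizes and summarises probes, and so fits all arrays to 1 distribution. No version of RMA is named there. Array medians were 5.92 to 5.96. The number of arrays limits the precision.

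Of 45101 probe sets, 64 controls, 5654 without a symbol and 1253 with several symbols were left out. Symbols were updated through a RefSeq table, and the probe set with the highest mean stood for each of 20753 genes. A single model with 4 groups was fitted in limma 3.58.1 (R 4.3.3, 8 residual degrees of freedom) with Benjamini-Hochberg adjustment over all genes, and was tested on simulated data. The 5 comparisons made are 2 of arsenite, 2 of genotype and their difference.

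Replicate numbers pair the arrays: the design states that every replicate experiment held all 4 conditions, and the 18 same-number pairs of arrays correlated by 0.231 to 0.738 in their deviations from group means, against -0.575 to -0.0106 for the 36 others. The replicate block was an alternative (6 residual degrees of freedom). Other alternatives were normalization, the choice of probe set, dim genes, the groups fitted, the shorter table's labels and leaving out arrays. All of these were fitted without the block, so the level of each experiment was not taken out where a call was lost.

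The Wnt genes and the lists were chosen with earlier results of these data known, and so were the last 3 motifs. Members past the threshold are named, with up to 2 of the brightest others per role. From the lists, up to 4 past it and 2 others per comparison were eligible. The values of 1 eligible gene are not reported here. Arrays are printed for members called after arsenite and for those with large genotype differences.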

Additional observations from a re-analysis of the deposited data

How the results depend on the processing

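Wnt11 in wildtype cells after arsenite (0.91 to 1.13), Wnt10a, Wnt5a, Wnt9a, Fzd3, Fzd5, Lrp5 and Tcf7 between untreated genotypes, and the same genes except Wnt9a under arsenite, kept direction and call under every alternative run on single genes, which excludes the shorter table's labels. None of the 5 knockout arsenite calls did. The replicate block gave 3, 10, 24 and 27 of the 52 genes (wildtype arsenite, knockout arsenite, untreated genotype, genotype under arsenite) for 1, 5, 20 and 17, 3 and 14 for 1 and 7 of the pathway list after arsenite, and 4, 7 and 10 for 2, 3 and 6 of the target list (after arsenite in each genotype, and genotype under arsenite). With the compared groups alone the 52 gave 2 and 1 after arsenite, the pathway list 2 and 1, and the target list 4 and 1. The mean over probe sets gave 1 of the 52 and 6 of the target list in the knockout after arsenite, and turned Fzd3 there to 0.04, since its probe sets differ in sign. Repeated quantile normalization gave 2 of the pathway list in the wildtype. Under the shorter table's labels, which mix the groups, limma called 0 of the 52 in each comparison. Leaving out 1 array or 1 experiment (the latter chosen after seeing the data) gave 1 to 2, 0 to 5, 10 to 22, 8 to 23 and 0 to 0 of the 52 over the 5 comparisons in the order above with the difference last. It gave 0 to 1, 1 to 8, 12 to 26, 14 to 30 and 0 to 0 of the pathway list, and 0 to 3, 1 to 4, 6 to 10, 5 to 8 and 0 to 0 of the target list. The wildtype arsenite count of 1 was 2 without array 2 of either untreated group or knockout arsenite array 2. The untreated genotype count of 20 was 11 without untreated wildtype array 2 or without untreated knockout array 3. The knockout arsenite count of 5 was 2 without knockout arsenite array 1 or untreated knockout array 3, and 3 without knockout arsenite array 2 or untreated knockout array 1. The genes above the floor numbered 39 to 40 without single arrays, and 45 or 37 with the floor at the 30th or 50th percentile. The other changes of setting left counts within 1.5 times. Genes near the floor have differences limited by background.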
